A study of Rattus norvegicus with 8 samples.

Results

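Transcripts of the citric acid cycle were examined in rat liver under dietary iron deficiency. The genes were Cs (citrate synthase), Idh3a, Idh3b and Idh3g (the subunits of NAD-dependent isocitrate dehydrogenase), Ogdh and Dlst (components of the 2-oxoglutarate dehydrogenase complex), Suclg1 (the alpha subunit of succinyl-CoA ligase) and Mdh2 (mitochondrial malate dehydrogenase). Every probe set paired by the array annotation with exactly 1 of these symbols was taken, which gave 11 probe sets for 8 genes, of 31042 probe sets and 14217 named genes in all. The list of names also held the spelling Idh3B, to which no probe set was paired apart from that of Idh3b. Cs had 4 probe sets, numbered here from the highest to the lowest mean (1375295_at, 1369967_at, 1384201_at and 1396453_at), and the other 7 genes had 1 each. The rule for taking probe sets uses names alone, and the genes were chosen with earlier results of these data known.

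RNA came from livers of male Sprague-Dawley rats aged 7 weeks and bought at 3 weeks, and 1 array was hybridised per liver. The iron-deficient group (4 arrays, from 7 rats put on the diet) ate an AIN93G-based diet from which ferric citrate had been removed, and the control group (4 arrays, from 6 rats) ate the same diet with it. Both diets held Avicel in place of cellulose, both groups were trained to daytime meals, and livers were excised on day 17 once the rats had fed for 1.5 h. By then hemoglobin in the iron-deficient group was 42% of the control level. Which of the fed rats were put on arrays is not stated.

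The citric acid cycle runs in the mitochondrial matrix, where it oxidises the acetyl group of acetyl-CoA and passes electrons, as NADH and reduced flavin, to the respiratory chain. In liver it also supplies citrate for lipid synthesis and, through malate and oxaloacetate, carbon for gluconeogenesis. Some enzymes of the cycle hold iron-sulphur clusters, such as succinate dehydrogenase, but the 8 gene products described here need no iron as a cofactor.

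As deposited, Suclg1 was the only one of the 8 genes whose level was lower in all 4 iron-deficient livers than in any control liver, a separation that 3.41% of all probe sets showed. Its direction was not kept under other scalings of the arrays. Under quantile normalization Suclg1 was higher in iron-deficient livers (1.86e-04), and differed by 0 with Hamp, the hepcidin gene, removed first. Under median centring it was also higher (4.48e-05, limma adjusted p = 0.964). That centring adds 5.06e-05 to every difference, so the sign there is no separate result about Suclg1. Idh3a, Idh3b, Ogdh and Mdh2 had lower means in iron-deficient livers and all 4 probe sets of Cs had higher ones, each with overlap between the diets. Idh3g and Dlst differed by 0.143 and 0.256 of their within-group SDs. No probe set passed limma's threshold (adjusted p of 0.05 over all probe sets), where 0.0322% of all probe sets passed. At an unadjusted p under 0.05 there were 2 of the 11, Suclg1 and Cs probe set 4, beside 11.4% of all probe sets.

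Values were deposited in log2 units, but array-to-array differences in them are compressed to a degree that varies with the probe set. The within-group SD of the 11 probe sets ran from 6.60e-07 (Idh3b) to 7.90e-05 (Ogdh), a ratio of 120, around a median of 9.64e-06, and over all probe sets the median was 7.82e-06. A deposited difference is therefore no fold change and is not compared between genes. The standardised difference, which counts a difference in units of the within-group SD, is given beside it. Array medians lay between 7.1199 and 7.1207, and the number of arrays limits the precision. In a bulk liver sample, fewer cells of a type and less RNA per cell cannot be told apart.

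Promoter sequences, 250 bases before and 50 after the annotated start, were listed by RefSeq (GRCr8) for 7 of the 8 genes; Idh3a was not matched. They were searched on both strands for 4 motifs of factors known to act on mitochondrial or hypoxia-responsive genes. The letters CCGGAAG, bound by ETS factors such as GABP, were found in 4 of the 7 promoters and in 8.75% of the 33469 promoters in the table. The 4 stretches are shown because this was the motif most of the genes shared, with the match in capitals, 5′ to 3′ on the gene's strand and ending before the start.
Idh3b (chr3:137939997-137940036, minus strand): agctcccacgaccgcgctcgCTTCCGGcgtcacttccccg
Idh3g (chrX:156675557-156675596, minus strand): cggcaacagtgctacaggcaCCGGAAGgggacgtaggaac
Dlst (chr6:110489666-110489705, plus strand): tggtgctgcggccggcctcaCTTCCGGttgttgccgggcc
Mdh2 (chr12:26544064-26544091, minus strand): agcagaccCCGGAAGtgggcaaagcgta

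The match began at position -26 from the start in Idh3b, -94 in Idh3g, -20 in Dlst and -242 in Mdh2. The hypoxia response core ACGTG occurred in Idh3g and Ogdh, or 2 of 7 promoters, against 19.3% of all. The NRF1 core TGCGCA occurred in Mdh2 alone of the 7 (7.24% of all) and the ERR binding core AAGGTCA in none of them (4.61% of all). Of the genes with the ETS letters, Idh3b and Mdh2 had lower and Idh3g and Dlst higher means in iron-deficient livers as deposited. All 4 were higher under quantile normalization and under median centring, as were 9 and 10 of the 11 probe sets in turn. Under median centring only 7.93% of all probe sets were lower. With Hamp removed before quantile normalization, Idh3b (-4.89e-04) and Idh3g (-5.66e-05) were lower, Dlst was higher (9.46e-05) and Mdh2 was at 0. Idh3g and Dlst changed sign when single arrays were left out. The 250 bases upstream of Cs and Suclg1, the genes that lay farthest apart in the diet comparison, held none of the 4 motifs and are shown in full.
Cs (chr7:1348139-1348388, plus strand): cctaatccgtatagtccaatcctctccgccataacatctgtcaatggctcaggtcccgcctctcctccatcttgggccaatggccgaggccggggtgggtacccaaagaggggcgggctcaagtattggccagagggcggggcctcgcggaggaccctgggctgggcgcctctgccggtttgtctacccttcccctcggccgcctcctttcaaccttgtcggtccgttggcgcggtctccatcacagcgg
Suclg1 (chr4:106866079-106866328, plus strand): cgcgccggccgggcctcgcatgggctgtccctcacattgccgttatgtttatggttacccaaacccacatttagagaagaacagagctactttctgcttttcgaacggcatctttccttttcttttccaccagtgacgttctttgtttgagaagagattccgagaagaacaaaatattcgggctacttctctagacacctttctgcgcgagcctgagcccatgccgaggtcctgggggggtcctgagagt

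Suclg1 encodes the subunit that succinyl-CoA ligase keeps in both its ATP-forming and GTP-forming versions, at the step where the cycle makes a nucleoside triphosphate directly. The 4 iron-deficient livers read 11.7084273, 11.7084286, 11.7084277 and 11.7084292, and the 4 controls 11.7084327, 11.7084351, 11.7084343 and 11.7084336. The highest iron-deficient value lay below the lowest control value, and both groups were tight. The groups were separated in this direction for 1 of the 11 probe sets and for 3.41% of all probe sets. The difference was -5.74e-06 ± 9.41e-07 (limma's SE, n = 4 per group), or -6.09 within-group SDs, with a limma adjusted p of 0.127. Here and below, that SE draws on the variance of all probe sets, and the within-group SD on the probe set alone. An exact permutation test (two-sided) gave p = 0.0286, the smallest that 4 arrays against 4 can give. Every probe set with separated groups gets this p, so it restates the separation and adds nothing to it.

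Only 0.0258% of all probe sets had a standardised difference below that of Suclg1. Its within-group SD, 9.43e-07, was itself small, with 5.87% of probe sets below it. Leaving out an array cannot make separated groups overlap. With each array left out, standardised differences ran from -7.71 to -5.54 and limma adjusted p from 0.147 to 0.300. The direction depended on the scaling. Suclg1 was higher in iron-deficient livers under quantile normalization (1.86e-04, limma adjusted p = 1.03e-05), and differed by 0 when quantile normalization was run with Hamp removed. Under median centring it was higher by 4.48e-05 ± 2.18e-04 (limma adjusted p = 0.964). The shift of 5.06e-05 that centring adds to every difference exceeded the deposited difference and so fixed this sign. Hamp, the hepcidin gene, was the brightest probe set on all 4 control arrays and ranked between 1471 and 17735 from the top on the iron-deficient ones, which by itself puts each probe set brighter than it 1 rank higher there. Under quantile normalization Suclg1 and Mdh2 had the same limma SE, 8.71e-06, so the p of Suclg1 there does not rest on its own spread.

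**Figure D1:**
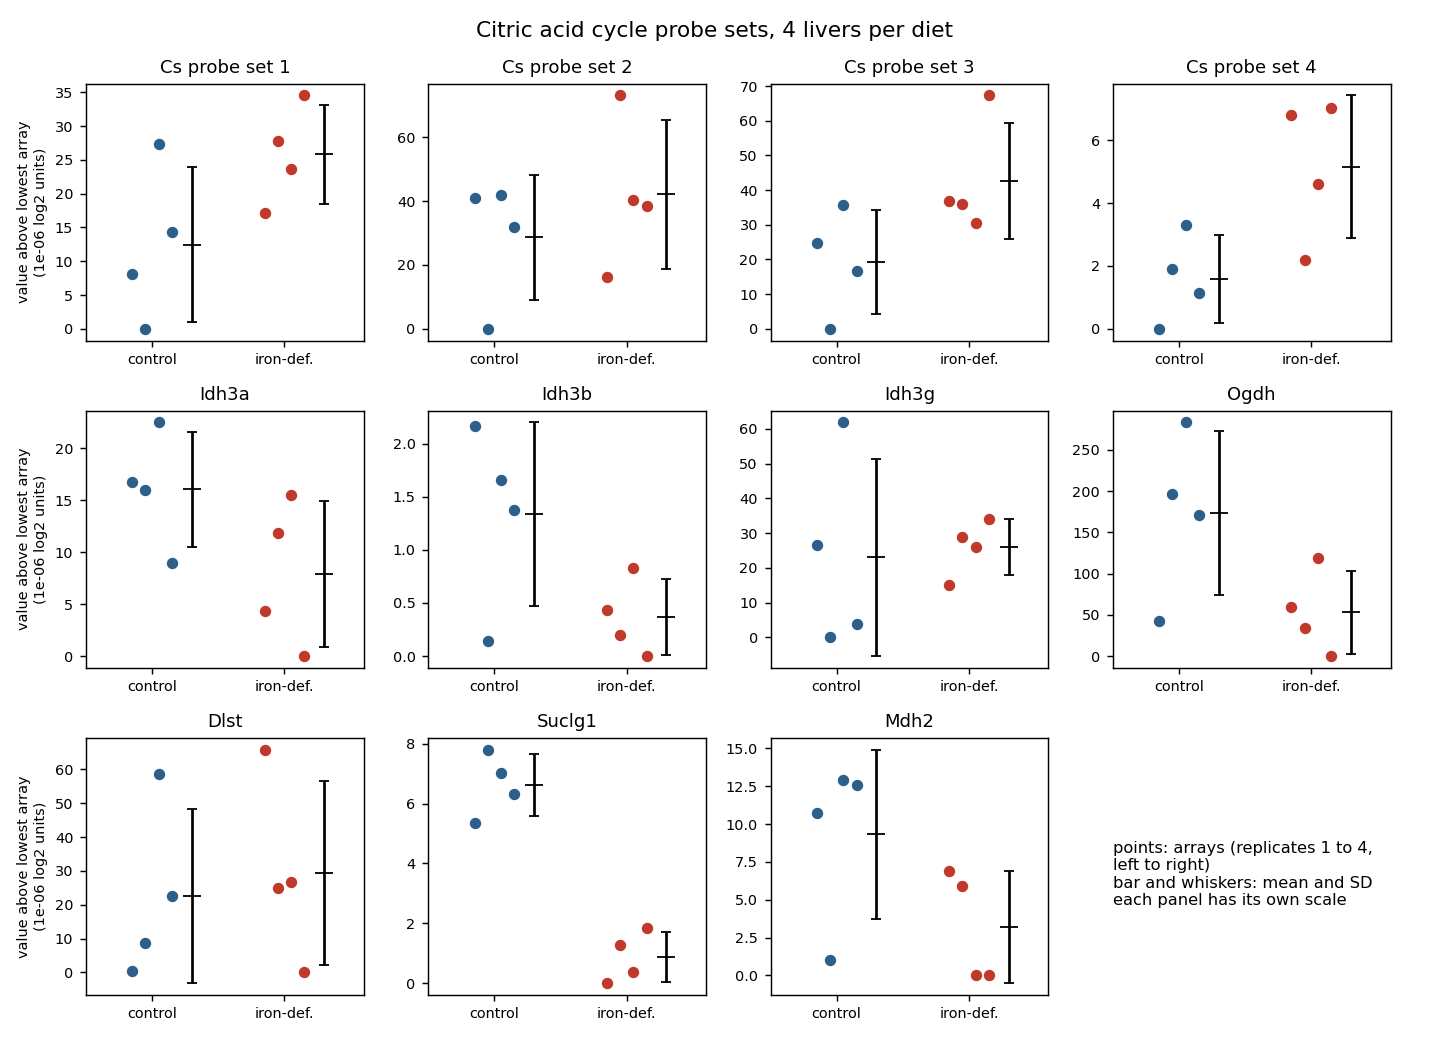
Deposited log2 values of the 11 probe sets as the height above the lowest of the 8 arrays (vertical axis, units of 1e-06 on the log2 scale, a separate scale for each panel), with control livers in blue and iron-deficient livers in red; points are arrays and bars are means with SD (n = 4). Suclg1 is the panel without overlap between the diets in the values as deposited, while the other 10 panels overlap.

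Cs makes citrate from acetyl-CoA and oxaloacetate and is the entry step of the cycle. On probe set 1 the iron-deficient livers read 9.7770244, 9.7770351, 9.7770310 and 9.7770418, and the controls 9.7770154, 9.7770072, 9.7770345 and 9.7770216. All 4 iron-deficient values lay above the control mean, but control replicate 3 read above 2 of them. The difference was 1.34e-05 ± 6.55e-06 (SE, n = 4 per group) or 1.39 SDs, with a limma adjusted p of 0.510. Probe set 2 read from 8.7205968 to 8.7206536 in iron-deficient and from 8.7205805 to 8.7206223 in control livers, so that the groups overlapped widely. Its difference was 1.35e-05 ± 1.46e-05, or 0.623 SDs (limma adjusted p = 0.794).

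On Cs probe set 3 the iron-deficient livers read 8.0405397, 8.0405390, 8.0405336 and 8.0405703, and the controls 8.0405276, 8.0405030, 8.0405387 and 8.0405197. Control replicate 3 alone reached into the iron-deficient range, and iron-deficient replicate 4 lay far above its group. The difference was 2.34e-05 ± 1.08e-05, or 1.47 SDs (limma adjusted p = 0.480). Probe set 4 had the largest standardised difference of the 4 probe sets of Cs, 1.91, from a difference of 3.58e-06 ± 1.44e-06 (limma adjusted p = 0.425), with an iron-deficient range of 6.6014058 to 6.6014106 and a control range of 6.6014036 to 6.6014069. Its values lie just above the 25th percentile of the arrays (6.5476 to 6.5481), among the dim probe sets.

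All 4 probe sets of Cs therefore had the higher mean in iron-deficient livers as deposited, and this held whichever array was left out. Among the 290 genes with 4 probe sets, 51 (17.6%) had all 4 higher. Without control replicate 3, the groups no longer overlapped for Cs probe sets 1, 3 and 4, all higher in iron-deficient livers, while limma still called none of them. That liver was the only control within the iron-deficient range on these probe sets, and fewer arrays separate more readily. The share of all probe sets separated without it is not given, so this is a description only. Probe sets 3 and 4 turned lower under quantile normalization (-1.06e-04 and -1.78e-05), as did probe sets 2, 3 and 4 with Hamp removed (-2.03e-05, -2.29e-04 and -1.78e-05). Across the 8 arrays the 6 pairs of Cs probe sets had Pearson r from -0.136 (2 and 4) to 0.881 (1 and 3), with a median of 0.621. With the group means removed these ran from -0.611 to 0.801, so the 4 probe sets did not rank the livers alike.

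NAD-dependent isocitrate dehydrogenase, built from catalytic alpha subunits and regulatory beta and gamma subunits, is a regulated oxidative step of the cycle. Idh3a, the alpha subunit, read 8.5858723, 8.5858798, 8.5858835 and 8.5858680 in iron-deficient livers and 8.5858848, 8.5858840, 8.5858905 and 8.5858770 in controls. All 4 iron-deficient values lay below the control mean, and 2 lay below every control. The difference was -8.16e-06 ± 4.33e-06, or -1.29 SDs (limma adjusted p = 0.542). It turned higher under quantile normalization with Hamp kept and removed (2.11e-04 and 9.94e-05) and under median centring (4.24e-05).

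Idh3b, the beta subunit, read 11.0217591, 11.0217589, 11.0217595 and 11.0217587 in iron-deficient livers and 11.0217608, 11.0217588, 11.0217603 and 11.0217601 in controls. Control replicate 2 alone fell among the iron-deficient values, so leaving it out had to separate the groups. The difference was -9.73e-07 ± 8.23e-07, or -1.47 SDs (limma adjusted p = 0.724), and it turned higher under quantile normalization (9.11e-04) and median centring (4.96e-05). Idh3g, the gamma subunit, ranged from 9.9695627 to 9.9695819 in iron-deficient livers, inside the control range of 9.9695478 to 9.9696096. Its difference of 2.99e-06 ± 1.41e-05 (0.143 SDs, limma adjusted p = 0.968) changed sign without control replicate 2 or 4 and under quantile normalization with Hamp removed (-5.66e-05). Across the 8 arrays, the 3 pairs of these subunits had r of 0.297, 0.333 and 0.583, all above 0.

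The 2-oxoglutarate dehydrogenase complex turns 2-oxoglutarate into succinyl-CoA, and Ogdh encodes its thiamine-dependent first enzyme. Ogdh read 10.603860, 10.603834, 10.603919 and 10.603800 in iron-deficient livers and 10.603843, 10.603997, 10.604083 and 10.603971 in controls. Control replicate 1 was the exception among the controls, and the other 3 lay above every iron-deficient liver. The difference was -1.20e-04 ± 5.34e-05, or -1.52 SDs (limma adjusted p = 0.463). Leaving out control replicate 1, the only control that overlapped, had to separate the groups. The standardised difference was then -3.04, and the limma adjusted p was still 0.214, the lowest with any array left out. Under quantile normalization Ogdh was higher in iron-deficient livers (0.00258, limma adjusted p = 0.00127), and also with Hamp removed (0.00163, limma adjusted p = 0.331).

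Dlst encodes the lipoyl-bearing transferase core of the same complex. Its iron-deficient values ran from 10.061426 to 10.061492 and its control values from 10.061427 to 10.061485, nearly the same range. The difference was 6.80e-06 ± 1.79e-05, or 0.256 SDs (limma adjusted p = 0.935). It changed sign without iron-deficient replicate 1 or control replicate 1. Across the 8 arrays Ogdh and Dlst had r = 0.393, less than Ogdh had with Suclg1 (0.700) or Idh3a (0.684). With the group means removed, Ogdh and Dlst had r = 0.659, one of the higher values among the 55 pairs of probe sets.

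Mdh2 closes the cycle by oxidising malate to oxaloacetate, the carbon that gluconeogenesis draws on. It read 11.927008, 11.927007, 11.927001 and 11.927001 in iron-deficient livers and 11.927012, 11.927002, 11.927014 and 11.927014 in controls. Control replicate 2 fell among the iron-deficient livers, and the other 3 controls lay above all of them. The difference was -6.12e-06 ± 3.28e-06, or -1.29 SDs (limma adjusted p = 0.545). Leaving out control replicate 2, the only control that overlapped, had to separate the groups. The difference was then -2.99 SDs, with a limma adjusted p of 0.401. Mdh2 turned higher under quantile normalization (0.00238, limma adjusted p = 9.14e-13) and median centring (4.45e-05), and its difference was 0 under quantile normalization with Hamp removed. Under quantile normalization its limma SE, 8.71e-06, was the same as that of Suclg1, so that p does not rest on the spread of Mdh2 between livers.

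**Figure D2:**
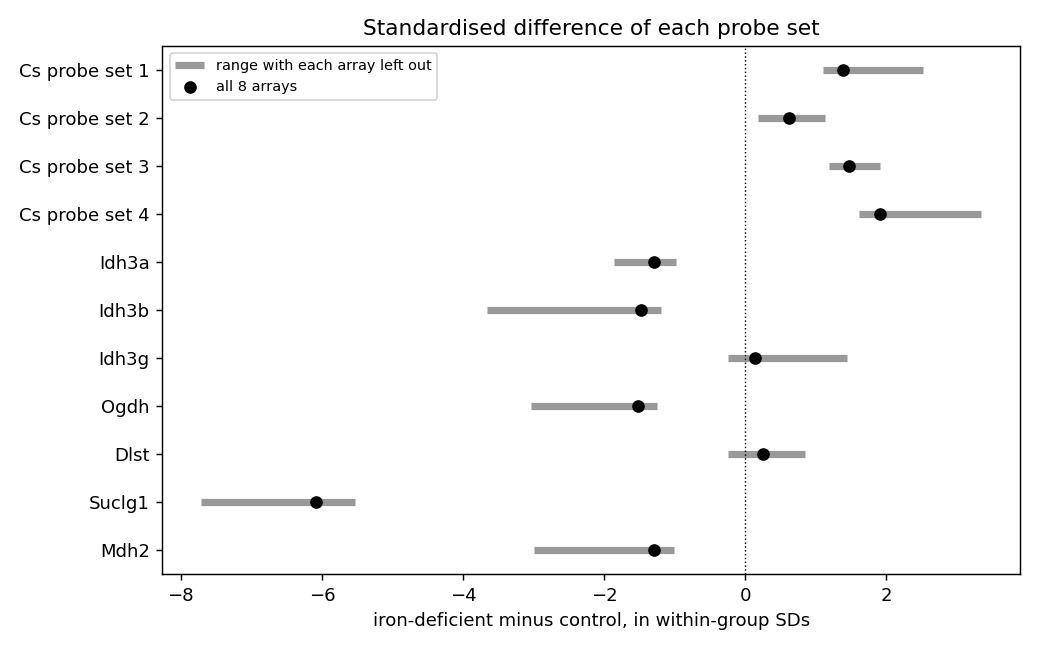
Standardised difference of each of the 11 probe sets (horizontal axis, iron-deficient minus control in within-group SDs, values as deposited); points use all 8 arrays and grey bars span the values with each array left out in turn. Suclg1 lies at -6.09, the 4 Cs probe sets lie from 0.623 to 1.91, and only the bars of Idh3g and Dlst cross 0.

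Counted together, 5 of the 11 probe sets were lower on average in iron-deficient livers, beside 50.4% of all probe sets. The median standardised difference was 0.143, and -0.0105 over all probe sets. Cs weighs heavily in these counts. With 1 probe set per gene, the one with the highest mean, 5 of the 8 genes were lower and the median was -1.29, where the median over all named genes was -0.0727. These values are descriptions, because the probe sets share the same 8 livers.

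The livers differed among themselves within a diet. Control replicate 3 gave the highest value of the control group for 9 of the 11 probe sets, where it did so for 26.7% of all probe sets. Control replicate 2 gave the lowest for 6 of the 11 (23.5% of all probe sets). Among iron-deficient livers, replicate 4 was the highest for 5 probe sets and the lowest for 5. After the group means were removed, 39 of the 55 pairs had r above 0, with a median of 0.277 and a range from -0.818 to 0.813. Of these 55 pairs, 6 join probe sets of Cs. The share of pairs above 0 over all probe sets is not given, so this is a description only. The points are the same 8 arrays for each pair, and scaling and RNA input of an array are shared by all of its probe sets.

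**Figure D3:**
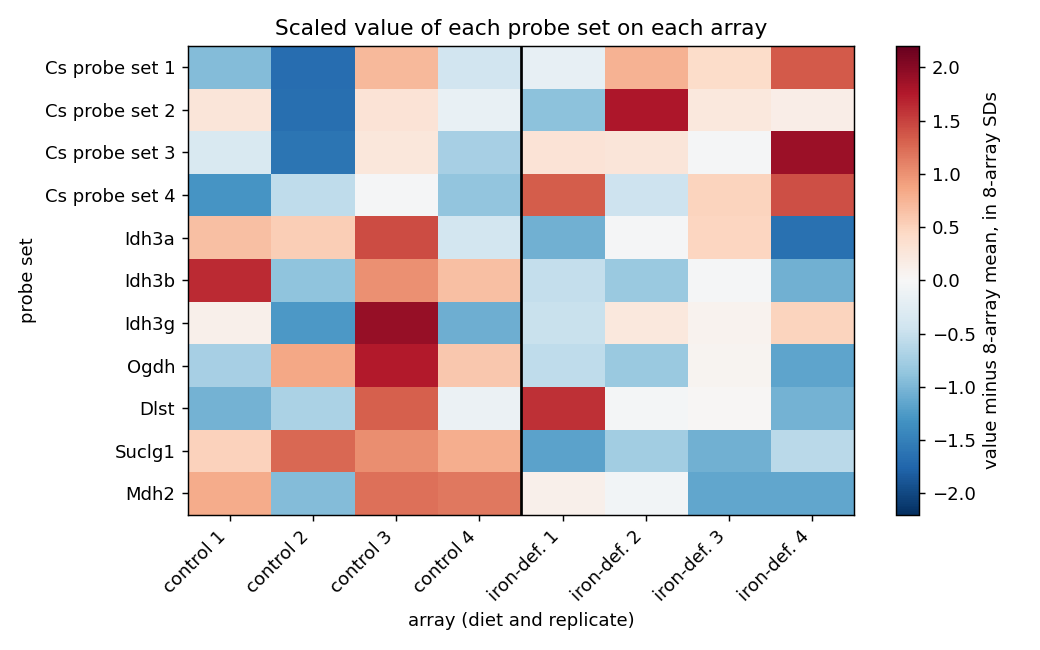
Each probe set scaled to mean 0 and SD 1 over the 8 arrays (colour, in 8-array SDs; red is high and blue is low), with arrays across and probe sets down and a line between the diets. The column of control replicate 3 is high for 9 of the 11 probe sets within its group, and the row of Suclg1 is red in all 4 control and blue in all 4 iron-deficient livers.

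The genes most like the mean scaled profile of the 11 probe sets, by Pearson r over the 8 arrays, were Zfp593 (0.965), Kcnn3 (0.954), Rps6ka2 (0.953), Eif3i (0.948) and Tbccd1 (0.930). That profile was set by the control livers, at 0.992 in replicate 3 and -0.603 in replicate 2 against values between -0.138 and 0.00385 in the other 6 livers. Without the 2 livers farthest from the median, r fell to between 0.0621 (Kcnn3) and 0.726 (Zfp593), so the likeness rests on those livers.

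Other enzymes of the cycle were represented by 8 measured genes, of which 3 were higher and 5 lower and none passed in limma (median standardised difference -0.0801). Under quantile normalization 7 were higher and 1 lower and 5 of the 8 passed, where 47.8% of all probe sets were lower. Under median centring 7 were higher and 1 lower and none passed, where only 7.93% of all probe sets were lower. Under quantile normalization with Hamp removed 3 were lower, 5 were at 0 and none passed. Sdhb, the iron-sulphur subunit of succinate dehydrogenase, differed by -2.40e-06 ± 1.78e-06, or -0.986 SDs (limma adjusted p = 0.679). Dld, the dihydrolipoamide dehydrogenase shared by the 2-oxoglutarate and pyruvate complexes, differed by 1.69e-04 ± 9.49e-05, or 1.21 SDs (limma adjusted p = 0.565). Sucla2 and Suclg2, the beta subunits that pair with Suclg1, showed no such separation, with standardised differences of -0.564 and -0.0425. Sdhb was higher under quantile normalization and median centring and at 0 under quantile normalization with Hamp removed, and Dld was lower under both quantile settings.

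Among 13 genes of pyruvate entry, 7 were higher and 6 lower, and none passed in limma. Under quantile normalization with Hamp removed 3 were higher and 10 lower, and 1 passed, where 61.1% of all probe sets were lower. Mpc2, a subunit of the mitochondrial pyruvate carrier, differed by -6.41e-05 ± 2.07e-05, or -2.10 SDs (limma adjusted p = 0.338), and Pc, the pyruvate carboxylase that makes oxaloacetate, by -5.70e-05 ± 2.19e-05, or -1.76 SDs (limma adjusted p = 0.407). Under quantile normalization Mpc2 was at 0 and Pc was higher. Of 12 genes of citrate export and the malate-aspartate shuttle, 3 were higher and 9 lower, and none passed in limma. Under quantile normalization 9 were higher and 3 lower and 5 passed, where 47.8% of all probe sets were lower. Under median centring 9 were higher and 3 lower and none passed, where only 7.93% of all probe sets were lower. With Hamp removed before quantile normalization, 2 were higher, 5 lower and 5 at 0, and 1 passed. Got1, the cytosolic aspartate aminotransferase, differed by 0.00698 ± 0.00309 (1.52 SDs, limma adjusted p = 0.463) and Got2, its mitochondrial counterpart, by -4.70e-06 ± 2.29e-06 (-1.45 SDs, limma adjusted p = 0.508). Got1 kept its direction under each scaling, and Got2 turned higher under quantile normalization and median centring.

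Regulators of mitochondrial genes had 3 of 11 higher and 8 lower, with a median standardised difference of -1.08, and none passed in limma. Nrf1, a transcription factor of nuclear genes for mitochondrial proteins, differed by -9.99e-06 ± 2.40e-06, or -2.93 SDs (limma adjusted p = 0.233), without overlap between the diets. Its other 2 probe sets lay at -0.540 and 0.636 SDs. Lonp1, a protease of the mitochondrial matrix, differed by -1.08e-05 ± 3.00e-06, or -2.51 SDs (limma adjusted p = 0.277), also without overlap, while its dimmer probe set lay at 0.780 SDs. Both genes turned higher under median centring, and Lonp1 also under quantile normalization. Under quantile normalization and under median centring alike, 8 of the 11 regulators were higher. Of all probe sets, 47.8% were lower under quantile normalization and 7.93% under median centring. A majority higher under median centring is therefore not particular to the regulators.

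The 9 measured hepatocyte markers averaged 10.46 (Tat, the lowest) or more in iron-deficient livers, with Hnf4a at 12.76, Apoa1 at 13.81 and Alb the highest, where the median probe set of an array read 7.12. They had summed log2 levels of 123.2681 to 123.2702 in iron-deficient and 123.2678 to 123.2695 in control livers. Serpina1 differed by 2.25e-07 ± 6.93e-07 (4.05 SDs, limma adjusted p = 0.946) and read higher in every iron-deficient liver than in any control. Ttr differed by -1.68e-07 ± 6.94e-07 (-2.10 SDs, limma adjusted p = 0.962). Both differences were smaller than their SEs and lie close to the last of the 8 decimals deposited. Endothelial markers were higher for 6 of 7 genes, 5 of them without overlap in that direction (3.07% of all probe sets), with summed levels of 64.7466 to 64.7492 against 64.7417 to 64.7427. Egfl7 differed by 4.21e-04 (5.28 SDs) and Flt1 by 0.00246 (5.09 SDs). Stellate markers were higher for 4 of 6, with sums of 47.0452 to 47.0568 against 47.0395 to 47.0431, and Lrat lay at 3.70 and Dcn at 2.99 SDs. Kupffer cell markers were higher for 5 of 5, with sums of 48.6670 to 48.6729 against 48.6630 to 48.6658, and Lyz2 lay at 2.84 and Mrc1 at 2.82 SDs, both without overlap. Lyz2 moved that sum most, since it differed by 0.00597 and the other 4 by 5.06e-05 (Clec4f) to 1.66e-04 (Mrc1), and the values of Clec4f, Cd163 and Cd68 overlapped. Likewise Flt1 (0.00246) and Stab2 (0.00225) moved the endothelial sum most, and Lum (0.00384), Dcn (0.00276) and Col3a1 (0.00199) the stellate one. Because compression varies with the probe set, a sum reflects such genes and not its list evenly. Cholangiocyte (1 of 3), lymphocyte (2 of 3), neutrophil (3 of 3) and erythroid markers (3 of 4) were higher in those numbers with overlapping sums. As deposited none of these markers passed in limma and none had a level of 0. Under quantile normalization 8 of 9 hepatocyte, 2 of 7 endothelial, 1 of 6 stellate and 1 of 5 Kupffer cell markers passed, all 9 hepatocyte markers being higher; with Hamp removed 1 stellate marker passed and the Kupffer cell markers were 2 higher, 2 lower and 1 at a difference of 0. Under median centring 2 endothelial markers passed. The part of these markers in the lower deposited value of Suclg1 was not tested.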

How the data were processed

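In the deposited table each probe set of an Affymetrix rat array has 1 value per liver. Its log2 unit was read from the deposited values (5.32 to 16.1). Total RNA (2 ug) was turned into biotinylated cRNA, per the labels' protocols; the probe summary, normalization and genome build are not given in the sources used here.

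Of 31099 rows, 57 array controls were left out. The annotation gave 1 symbol to 20826 probe sets, several to 436 and none to 9780. Iron-deficient minus control was fitted in limma 3.58.1 (R 4.3.3; lmFit, eBayes) over 31042 probe sets, with Benjamini-Hochberg adjustment and no replicate block. On simulated data with the spread of 31042 probe sets, limma recovered 2%, 12%, 90% and 100% of 50 probe sets changed by 2, 4, 8 and 16 SDs, with 5 false calls.

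The genes, lists, motifs and alternatives were chosen with earlier results of these data known. Every listed gene and probe set was named, and from each other list up to 2 genes with the largest standardised difference where none passed. Of such genes the brightest probe set was used. Alternatives were 2 quantile normalizations, median centring, leaving out dim probe sets (25%) or each array, a replicate block, trend and robust variance, 1 probe set per gene, and exact permutation.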

Additional observations from a re-analysis of the deposited data

Results flagged for a closer look

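Cs probe set 3 read 8.0405703 in iron-deficient replicate 4, where the other 3 iron-deficient livers read 8.0405336 to 8.0405397. The gap to the nearest liver was 0.833 of the group's whole range, above the critical value of Dixon's test for 4 samples. Among 22 groups of 4 examined, chance gives about 1 such case in 20. Without this liver the difference of Cs probe set 3 kept its sign, and limma did not call it.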

How the results depend on the processing

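As deposited, 10 probe sets passed in limma and none of the 11 citric acid cycle probe sets did. Leaving out dim probe sets, trend or robust variance and exact permutation leave the values as they are, so the 11 differences could not change there. None of the 11 passed in limma without dim probe sets or with trend or robust variance. With each array left out, the total ran from 4 to 27 (without iron-deficient replicate 3), none of the 11 passed, and the median standardised difference ran from -0.243 to 0.789. Of the 11, 1 to 4 had no overlap (1 with all arrays), but the share of all probe sets without overlap is not given for those settings. Dlst ran from -5.37e-06 to 1.88e-05 and Idh3g from -4.69e-06 to 1.59e-05. With 1 probe set per gene the median was -1.29.

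Quantile normalization gave 1093 calls, 3 of them among the 11 (Ogdh, Suclg1 and Mdh2, all higher and all without overlap), 2 of the 11 lower and a median of 1.43. It turned Cs probe sets 3 (-1.06e-04) and 4 (-1.78e-05), Idh3a (2.11e-04), Idh3b (9.11e-04), Ogdh (0.00258), Suclg1 (1.86e-04) and Mdh2 (0.00238). Without the Hamp probe set it gave 83 calls and 0 of the 11 without overlap, and turned Cs probe sets 2 (-2.03e-05), 3 (-2.29e-04) and 4 (-1.78e-05), Idh3a (9.94e-05), Idh3g (-5.66e-05) and Ogdh (0.00163). This normalization works on ranks, so neighbouring probe sets set the size of a difference. A probe set that keeps its rank within each diet has no spread there, and its limma SE then comes from the other probe sets. With Hamp kept, the median standardised difference of the other cycle enzymes and of the hepatocyte markers was infinite for that reason, so their calls are not read as diet effects. Median centring gave 63 calls, with 1 of the 11 lower and 0 without overlap, where 7.93% of all probe sets were lower. It turned Idh3a (4.24e-05), Idh3b (4.96e-05), Suclg1 (4.48e-05) and Mdh2 (4.45e-05). It adds 5.06e-05 to every difference, more than the size of those 4 as deposited, so that shift fixed their sign. Ogdh stayed lower (-6.97e-05).

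With a replicate block 1 probe set passed, and none of the 11. Same-numbered arrays had correlations of deviations from -0.111 to 0.0245. This does not settle whether livers of the same number were paired in the experiment.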
